A study of Mus musculus with 8 samples.

Results

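The genes described are 9 receptors of natural killer (NK) cells, Ncr1 and 8 genes of the killer cell lectin-like receptor (Klr) family: Klrb1c, Klrk1, Klrd1, Klrc1, Klre1, Klrg1, Klra7 and Klra8. They were taken by name as 9 of the 32285 genes in the table, which held 27 genes when every Klr gene and Ncr1 were counted. The list goes by name and sets no level, but it was drawn up with earlier results of these data known. They were followed in NK cells, type 1 innate lymphoid cells (labelled ILC-1), CD8 T cells and cells labelled Stem-Progenitor.

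The cells were CD45+ immune cells sorted from grafts of NIT-1, a beta cell line from NOD mice, either wild type (WT) or Rnls mutant (a line edited in the gene for Renalase). By the study's methods, grafts lay under the skin of immunodeficient NOD-background mice (NOD.scid or NSG), and all hosts then received splenocytes from diabetic NOD mice. The study's Results name the hosts of the sequenced grafts only as NOD mice. The sample titles give 10 or 17 days without a starting event, read here as days after that transfer. The methods state this for the paper's own grafts at 17 days. NOD.scid hosts have NK cells of their own, so NK cells of a graft may come from the host or from the transferred spleen cells, and the 2 sources cannot be told apart here. There were 16 grafts, 4 per genotype and day, each marked by a hashtag antibody, and each genotype at each day was 1 library. By the study's methods each host carried a WT and a Rnls mutant graft, 1 on either flank. A supplementary legend also calls the 4 replicates behind its single-cell panels paired. The sources used here do not say which hashtags of the 2 genotypes shared a host, so grafts were fitted as separate samples. Genotype and day therefore cannot be told apart from the library, and the p-values below measure the spread between grafts within libraries.

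The table held 22441 cells in 29 clusters and 12 cell types named by the authors. A graft held between 1742750 and 9729230 unique molecular identifiers (UMIs, 1 per captured transcript), and a cell at least 1001 UMIs with a median of 3520. There were 1515 NK cells (cluster 6), 221 ILC-1 (cluster 23), 3449 CD8 T cells (5 clusters) and 830 Stem-Progenitor cells (clusters 11 and 24). Across libraries 42 cell barcodes were shared, which touched 84 cells. Levels are UMIs of a gene per 1000000 UMIs of the same cell type in a graft (CPM), given for grafts with at least 10 cells of the type, which left 16 grafts for NK and CD8 T cells, 12 for Stem-Progenitor cells and 8 for ILC-1.

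NK cells decide between attack and tolerance by adding up activating and inhibitory receptors. NKp46 (Ncr1) is an activating receptor of the immunoglobulin superfamily that marks NK cells and ILC1 in mice and signals through the adaptors encoded by Cd247 and Fcer1g. The Klr receptors are C-type lectin-like proteins. NK1.1 (Klrb1c) and NKG2D (Klrk1) are activating, and NKG2D binds stress-induced relatives of class I molecules such as those encoded by Raet1e, H60b and Ulbp1. CD94 (Klrd1) joins NKG2A (Klrc1) in an inhibitory receptor for the class I-like molecule Qa-1, encoded by H2-T23. Klre1 has no signaling motif of its own and acts with partner chains, KLRG1 (Klrg1) is an inhibitory receptor for cadherins found on mature NK and effector T cells, and the Ly49 receptors Ly49G (Klra7, inhibitory) and Ly49H (Klra8, activating) bind class I or class I-like molecules and are turned on in some NK cells and not in others.

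The 8 Klr genes lie on mouse chromosome 6 (GRCm38), in the NK gene complex and, for Klrg1, ahead of it, over 7.963 Mb from 122270596 to 130233322. Ncr1 lies alone on chromosome 7 at 4337724 to 4345164. Klre1 (129577905 to 129585827), Klrd1 (129591782 to 129598775), Klrk1 (129610323 to 129623864) and Klrc1 (129666015 to 129678973) follow each other in that order, and Klra8 (130115226 to 130129898) and Klra7 (130218605 to 130233322) lie further along. Klrc1, Klra7 and Klra8 share their ends with near copies. Of the 31-base words in the last 500 bases of the transcript, which is where this 3′ assay reads, 68.72% of those of Klrc1 also occur in Klrc2, 46.6% of those of Klra7 in Klra13-ps and 33.83% of those of Klra8 in Klra9, while the other 6 members shared no such word with another gene. The set of Ly49 genes also differs between mouse strains, and these NOD-derived cells were counted against the mm10 genome, so values of Klrc1, Klra7 and Klra8 are those of the reference names and are uncertain as values of single NOD genes.

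RefSeq (GRCm38.p6) gave promoters for 7 of the 9 members, without Klrd1 and Klrg1. The 250 bases before the first listed start are shown for Ncr1, found in NK cells and ILC-1, for Klrk1 and Klrc1, which CD8 T cells also held, and for Klra8, found in NK cells and macrophages. Capitals mark the RUNX core motif (TGTGGT or ACCACA on the other strand) and a T-box motif (GTGTGA or TCACAC), both families of factors that lymphocytes use.
Ncr1, chr7:4337465-4337714, plus strand: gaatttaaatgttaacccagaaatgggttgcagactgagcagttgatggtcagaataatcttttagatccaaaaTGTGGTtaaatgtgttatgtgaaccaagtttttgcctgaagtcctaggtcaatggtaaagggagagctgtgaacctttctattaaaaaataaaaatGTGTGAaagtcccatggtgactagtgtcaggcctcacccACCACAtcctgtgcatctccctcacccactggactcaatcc
Klrk1, chr6:129623865-129624114, minus strand: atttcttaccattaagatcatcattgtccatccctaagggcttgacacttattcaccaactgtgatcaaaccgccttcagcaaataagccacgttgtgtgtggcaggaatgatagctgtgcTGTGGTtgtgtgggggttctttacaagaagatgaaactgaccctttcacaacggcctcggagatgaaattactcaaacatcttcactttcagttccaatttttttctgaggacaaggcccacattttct
Klrc1, chr6:129678974-129679223, minus strand: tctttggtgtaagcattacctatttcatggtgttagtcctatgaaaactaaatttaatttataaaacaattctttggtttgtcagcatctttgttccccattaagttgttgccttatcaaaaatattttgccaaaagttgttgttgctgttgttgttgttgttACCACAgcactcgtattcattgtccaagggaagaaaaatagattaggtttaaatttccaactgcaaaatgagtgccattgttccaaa
Klra8, chr6:130129899-130130148, minus strand: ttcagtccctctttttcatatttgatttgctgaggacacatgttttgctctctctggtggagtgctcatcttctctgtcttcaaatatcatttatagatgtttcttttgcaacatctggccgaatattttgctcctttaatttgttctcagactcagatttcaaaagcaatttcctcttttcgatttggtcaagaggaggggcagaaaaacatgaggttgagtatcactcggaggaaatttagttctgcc
The RUNX core stood in 5 of the 7 promoters, 2 times in that of Ncr1 and 1 time each in those of Klrb1c, Klrk1, Klrc1 and Klre1, and in neither of the Ly49 promoters. Of all 32536 promoters of this length, 14.0% held it. The T-box motif stood in that of Ncr1 only among the 7, and in 12.1% of all promoters. These are matches of letters, and no binding was measured here.

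NK cells and ILC-1 shared most of these receptors, while the Ly49 genes were higher in NK cells and Klrc1 in ILC-1. In cells labelled NK, 8 of 8 fixed NK markers, a list that includes Ncr1, were detected at a summed level of 6361 to 16929 CPM per graft. The CD4 T cell, B cell and beta cell lists were at or near 0, while the ILC1 list reached 683 CPM, the macrophage and monocyte list 797 and the CD8 T cell list 1283. Detection alone does not set NK cells apart. CD8 T cells also held 8 of 8 NK markers at day 10, at 3080 to 4641 CPM, and Stem-Progenitor cells of the Rnls mutant at day 10 summed to 8747 to 13220. Ncr1 averaged 511 ± 215 CPM in NK cells (SD, n = 16 grafts) and 684 ± 210 in ILC-1 (n = 8), a gap below the larger SD, and was higher in ILC-1 than in NK cells in 7 of the 8 grafts that held both. Klrb1c averaged 110 ± 53.2 CPM in NK cells and 69.2 ± 30.2 in ILC-1. Klrk1 (549 ± 131 in NK cells, 656 ± 191 in ILC-1), Klrd1 (504 ± 128 and 588 ± 160), Klre1 (509 ± 106 and 450 ± 100) and Klrg1 (122 ± 67.3 and 177 ± 95.2) differed between the 2 types by less than the larger SD. Klra7 averaged 534 ± 130 CPM in NK cells against 33.9 ± 88.8 in ILC-1, and Klra8 502 ± 150 against 18.5 ± 47.8, both higher in NK cells in 8 of 8 grafts. Klrc1 went the other way, at 85.5 ± 45.9 CPM in NK cells and 232 ± 135 in ILC-1, a gap above the larger SD, and was higher in ILC-1 in 7 of 8 grafts. The types were drawn by clustering these same cells, so these are descriptions with no test.

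The little Klra7 and Klra8 in ILC-1 came mostly from 1 graft. Of 29 Klra7 UMIs in all ILC-1, 26 lay in 4 of the 16 ILC-1 of Rnls mutant day 10 graft 1, and of 16 Klra8 UMIs 14 lay in 5 cells of that graft. In the other 7 grafts with at least 10 ILC-1, Klra7 lay between 0 and 17.9 CPM.

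Klrk1, Klrd1 and Klrc1 were shared with CD8 T cells, while Ncr1, Klrb1c and both Ly49 genes were not. In cells labelled CD8 T cell, 6 of 6 fixed CD8 T cell markers were detected in every group, at a summed level of 4042 to 5846 CPM per graft. NK cells also had 6 of 6 at day 10, at 330 to 446 CPM. Klrk1 averaged 533 ± 108 CPM in CD8 T cells (n = 16), within the SD of its level in NK cells, and was higher in NK cells in 6 of 16 grafts. Klrd1 averaged 395 ± 69.3 CPM and was higher in NK cells in 14 of 16 grafts. Klrc1 was at 433 ± 77.4 CPM in CD8 T cells and was higher in CD8 T cells in 16 of 16 grafts. Klre1 (139 ± 39.3) was lower than in NK cells in 16 of 16 grafts and Klrg1 (91.4 ± 25.7) in 10 of 16. Ncr1 (1.17 ± 1.71 CPM), Klrb1c (1.67 ± 2.75) and Klra7 (1.16 ± 1.75) rested on 13 to 15 UMIs in all 3449 CD8 T cells, and Klra8 (6.11 ± 6.37) on 36.

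**Figure D1:**
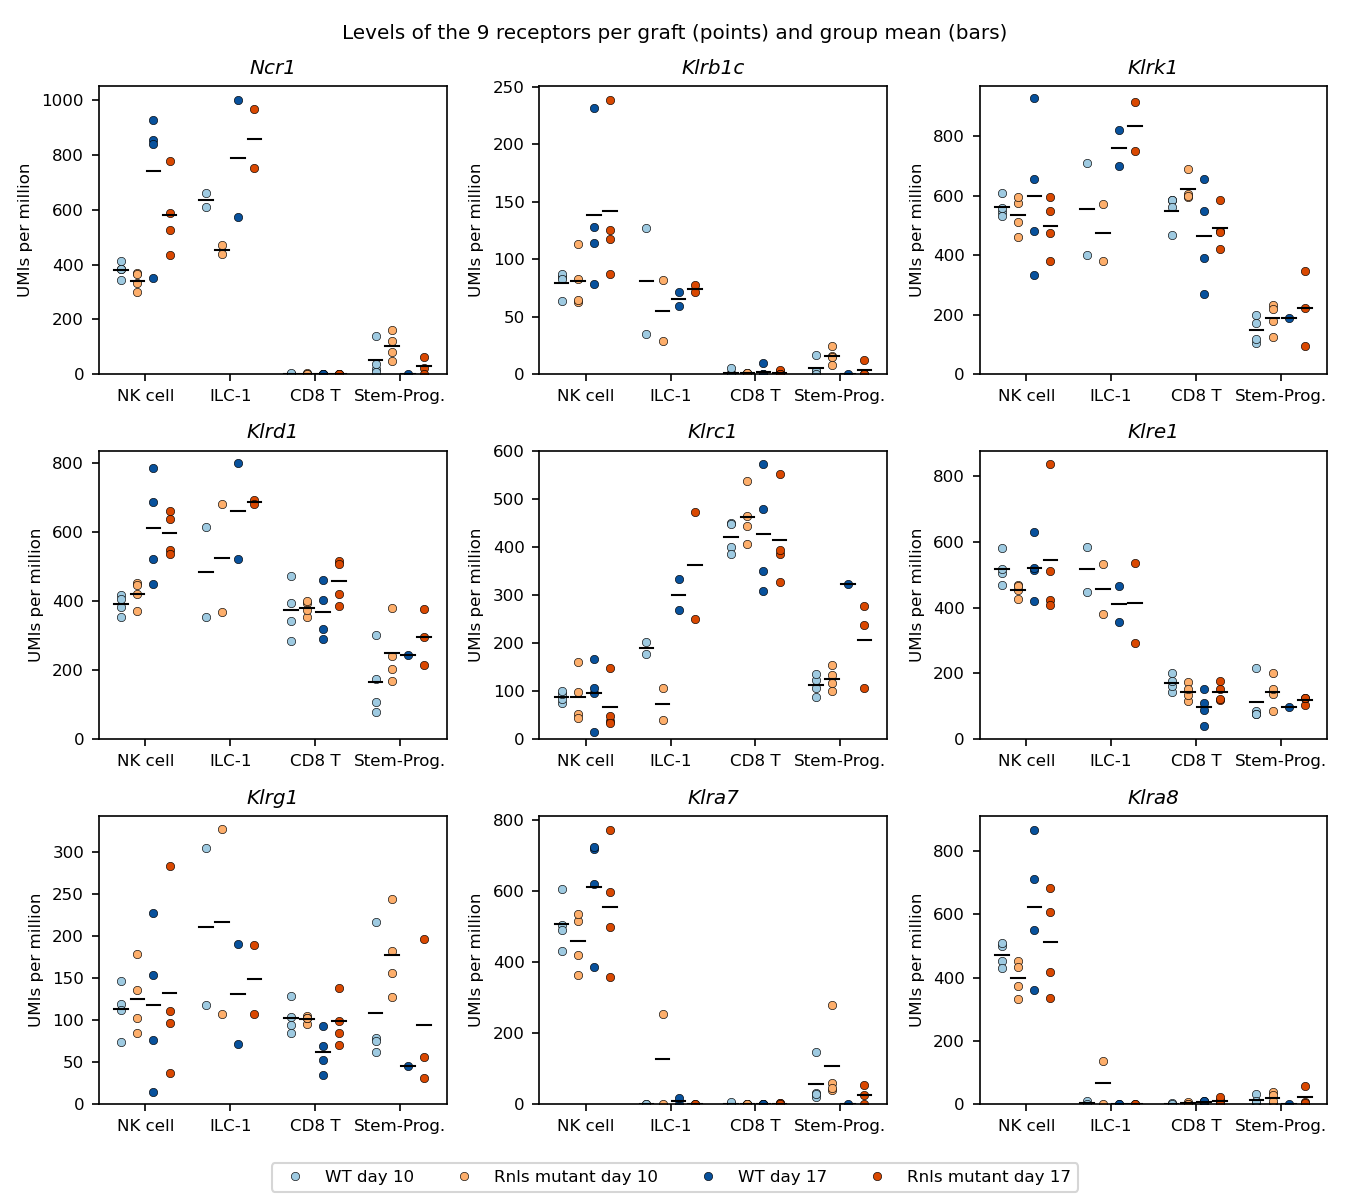
Levels of the 9 receptors in CPM for each graft with at least 10 cells of the type (points, coloured by genotype and day) with the group mean (bars), each gene on its own scale that starts at 0. Klra7 and Klra8 had their highest mean in NK cells, Klrc1 had its highest in CD8 T cells, and Ncr1 in NK cells lies between 301 and 413 at day 10 and between 349 and 925 at day 17.

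Beyond these types the receptors thinned out at different points. Klrc1 averaged 244 ± 62.7 CPM in CD4 T cells (n = 16), Klrk1 178 ± 47.3 and Klrd1 153 ± 47.2, and Klrg1 was highest of all types in regulatory T cells at 190 ± 82.8 (n = 14), a level that exceeded ILC-1 by less than the SD. Dendritic cells held Klrk1 at 93.5 ± 19.1 CPM, and 1 of their 4 clusters (25) held Klrd1 at 212 CPM, with a UMI in 46.7% of its 137 cells. Klrk1 also stood at 38.9 ± 21.1 in monocytes (n = 15) and 29.4 ± 16.1 in macrophages (n = 16). Granulocytes held 0 UMIs of Ncr1, Klrb1c, Klrk1, Klrc1 and Klra8 in 369 cells, which allows a share of cells with a UMI of up to 0.813% for each, counting error only.

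The share of cells with a UMI was compared after each cell was thinned to 1000 UMIs, since Stem-Progenitor cells were deeper (median 9652 UMIs) than NK cells (2411), ILC-1 (2657) and CD8 T cells (2555). At that depth Ncr1 was seen in 32.9% of NK cells (57.2% unthinned), 45.2% of ILC-1 (79.6%), 0.116% of CD8 T cells (0.319%) and 0.0975% of macrophages (0.237%), whose median depth was 4719 and which should lack the gene. Klra7 was seen in 30.5% of NK cells (48.9% unthinned) and Klra8 in 34.3% (54.1%). In thinned CD8 T cells Ncr1 and Klrb1c were each seen in 0.116% and Klra7 in 0.174%, and no expression is read from shares this low, since free RNA in droplets also gives UMIs. A thinned NK cell held a median of 2 of the 9 receptors and an unthinned one 4, and 0.858% of unthinned NK cells held none.

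Klra7 and Klra8 were seen in a smaller share of the NK cells with Klrc1 than of the others, which is a description of cells and was not tested. After thinning, Klra7 was seen in 9.82% of the 112 NK cells with a Klrc1 UMI and in 32.1% of the 1403 others, and Klra8 in 19.6% against 35.4%. Klre1 did not separate in this way (38.4% against 37.3%), nor did Klrd1 (39.3% against 32.6%) or Klrk1 (49.1% against 42.6%). The same direction held in each group: Klra7 in Klrc1 cells against the others was 0 of 29 cells (which allows up to 10.3%) against 28.7% in Rnls mutant day 10, 11.1% against 36.4% in Rnls mutant day 17, 14.3% against 32.0% in WT day 10 and 9.09% against 37.4% in WT day 17. It was lower in Klrc1 cells in 9 of the 9 grafts with at least 5 such cells, and Klra8 in 8 of 9, while Klre1 was lower in 5 of 9. Unthinned, the shares were 22.5% against 53.6% for Klra7 and 28.2% against 58.6% for Klra8, lower in 13 of 13 grafts for each. CD8 T cells and ILC-1 held more Klrc1 (433 and 232 CPM) than NK cells (85.5). They held less Klra7 (1.16 and 33.9 against 534) and Klra8 (6.11 and 18.5 against 502). The part of such cells among the NK cells with Klrc1 was not tested. The 2 Ly49 genes themselves overlapped, with both seen in 13.9% of thinned NK cells (34.8% unthinned), only Klra7 in 16.6%, only Klra8 in 20.4% and neither in 49.1%.

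**Figure D2:**
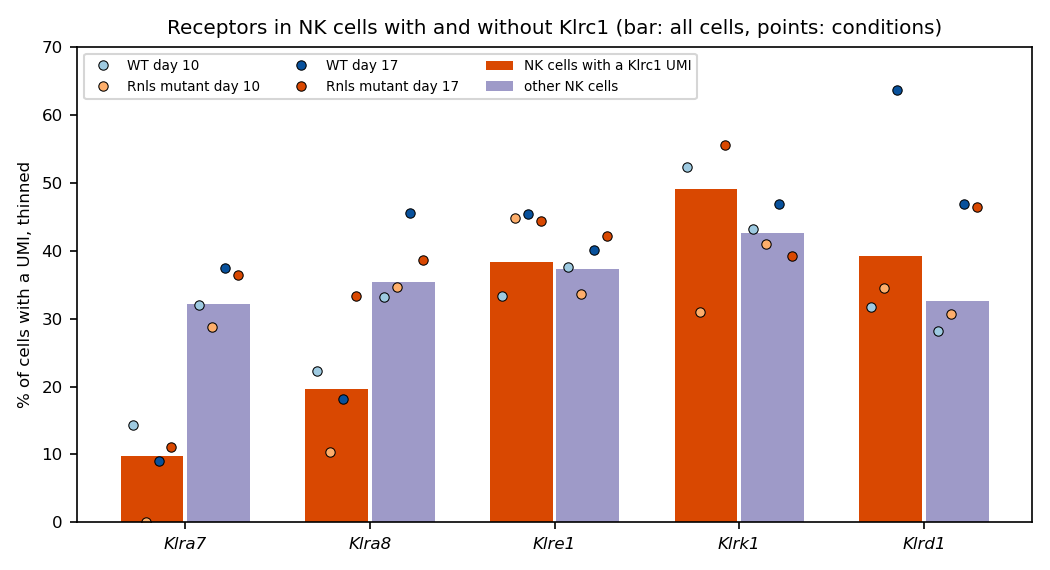
Share of NK cells with a UMI of each gene, in percent after thinning to 1000 UMIs, in cells with a Klrc1 UMI and in the other NK cells; bars pool all cells and points are the 4 groups of genotype and day. Klra7 (9.82% against 32.1%) and Klra8 (19.6% against 35.4%) are lower in cells with Klrc1 in every group, and Klre1, Klrk1 and Klrd1 are not.

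The comparison of days asked how the receptors of graft-infiltrating cells change as the autoimmune response proceeds. In NK cells, Ncr1 and Klrd1 were higher at day 17. Ncr1 in NK cells lay at 301, 368, 333 and 365 CPM in Rnls mutant and at 345, 382, 384 and 413 in WT grafts at day 10. At day 17 it lay at 436, 587, 525 and 776 in Rnls mutant and at 925, 853, 349 and 839 in WT grafts. Only WT day 17 graft 3, with 25 NK cells, fell within the day 10 range, and the log2 fold change was 0.79 (SE 0.15, adjusted p = 0.000996, edgeR quasi-likelihood test with Benjamini-Hochberg adjustment). Klrd1 lay between 353 and 452 CPM in the 8 day 10 grafts and between 449 and 784 in the 8 day 17 grafts, where 1 WT graft overlapped, and rose by 0.53 on the log2 scale (SE 0.12, adjusted p = 0.00539, edgeR). Without the filter on low counts the Klrd1 call was lost (0.40, adjusted p = 0.0824).

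These 2 were the calls among 9 of 9 members tested, where 12.9% of the 3263 genes tested in NK cells were called between days. Klrb1c lay between 62.6 and 113 CPM at day 10 and between 78.4 and 239 at day 17, with a log2 fold change of 0.61 (SE 0.21) and an adjusted p of 0.0529 in edgeR, above the threshold of 0.05. The alternatives spread around that value, with an adjusted p from 0.0289 to 0.214 and 0.0413 in DESeq2. Klra8 (0.33, SE 0.16, adjusted p = 0.184), Klra7 (0.21, SE 0.15, 0.383), Klre1 (0.05, SE 0.13), Klrk1 (-0.09, SE 0.15), Klrg1 (-0.0044, SE 0.29) and Klrc1 (-0.21, SE 0.30) did not pass in edgeR. The median over the 9 members was 0.21 and over all genes 0.02. The sum of 5 macrophage and monocyte markers in NK cells moved with day in the Rnls mutant, from 77.4 to 133 CPM at day 10 to 472 to 797 at day 17, and less in WT (182 to 308 and 203 to 308). Macrophages held 17 Ncr1 and 28 Klrd1 UMIs in 7179 cells. The sum of 6 CD8 T cell markers in NK cells also moved with day, from 378 to 446 CPM to 447 to 995 in the Rnls mutant and from 330 to 424 to 430 to 1283 in WT, with 6 of 6 detected at day 10 and 4 of 6 at day 17, where Cd8a and Cd3e were at 0. The part of either list in the NK cell values was not tested.

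In ILC-1, Klrc1 was the member that rose. It lay at 107 and 40.9 CPM in Rnls mutant and 177 and 203 in WT grafts at day 10. At day 17 it lay at 475 and 250 in Rnls mutant and 333 and 269 in WT grafts, with no overlap of the days. With Rnls mutant grafts of fewer than 10 ILC-1 the days did overlap. Of these, day 10 graft 4 (8 cells) was at 365 CPM and day 17 graft 1 (9 cells) at 100. Over grafts with at least 10 ILC-1 the log2 fold change was 1.26 (SE 0.36, adjusted p = 0.0315, edgeR). It was the 1 call among 6 members tested against 15.5% of all 1770 genes called. The call was lost in DESeq2 (adjusted p = 0.153) and without any 1 of 5 grafts, namely Rnls mutant day 10 graft 3, Rnls mutant day 17 graft 2, WT day 10 grafts 1 and 2 and WT day 17 graft 1, with an adjusted p of 0.0686 to 0.251. The macrophage and monocyte markers in ILC-1 moved with day in the Rnls mutant, from 40.9 to 48.7 CPM (2 of 5 detected, Adgre1, C1qa and Csf1r at 0) to 751 to 872 (4 of 5, Csf1r at 0), and in WT from 82.6 to 152 (1 of 5) to 179 to 179 (2 of 5). Macrophages held 13 Klrc1 UMIs in 7179 cells. The 8 ILC1 markers (7 detected in each group, Zfp683 at 0) summed to 467 to 1370 CPM in ILC-1 of the Rnls mutant at day 10 and 1967 to 2728 at day 17, and to 1676 to 2029 and 1686 to 3821 in WT. CD8 T cells summed to 1263 to 1782 CPM on this list, so ILC-1 of the Rnls mutant at day 10 did not stand out by it. The CD8 T cell markers in ILC-1 went from 573 to 574 CPM down to 0 to 173 in the Rnls mutant and from 152 to 248 up to 452 to 538 in WT, with Cd8a and Cd8b1 at 0 in every group. The part of these 3 lists was not tested. Ncr1 in ILC-1 lay between 438 and 661 CPM at day 10 and between 574 and 999.9 at day 17 (0.41, SE 0.28, adjusted p = 0.331, edgeR). With grafts of any cell number Ncr1 in ILC-1 was called (0.66, adjusted p = 0.0219), and so was Klrk1 (0.88, adjusted p = 0.0226), and without WT day 17 graft 1 the Ncr1 value was 0.16. In ILC-1 the filter on low counts left out Klrb1c, Klra7 and Klra8. An exact two-sided permutation test over grafts within genotypes gave p = 1 for Klrb1c (70.1 CPM at day 17, 68.3 at day 10). For Klrb1c the smallest p this exact permutation test could give was 0.0556. The same exact two-sided permutation test gave p = 1 for Klra7 and p = 0.5 for Klra8. Of the grafts with at least 10 ILC-1, only 1 per genotype held Klra7 and only 1 per genotype held Klra8. For these genes the exact permutation test could not give a p below 0.5, so it cannot decide whether they differed between days.

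In CD8 T cells the called members fell over the mean of the genotypes. Klrk1 in CD8 T cells lay at 595, 606, 599 and 689 CPM in Rnls mutant and 585, 468, 586 and 561 in WT grafts at day 10, and at 482, 476, 422 and 587 in Rnls mutant and 657, 390, 269 and 549 in WT grafts at day 17. The groups overlapped, and the log2 fold change was -0.39 (SE 0.11, adjusted p = 0.0136, edgeR). Klrg1 in CD8 T cells fell by 0.57 (SE 0.16, adjusted p = 0.0111), from 84.4 to 129 CPM at day 10 to 35.0 to 139 at day 17, and Klre1 by 0.40 (SE 0.14, adjusted p = 0.0467), from 116 to 202 CPM to 41.3 to 178. Both falls were seen mainly in WT grafts, which held 18 to 81 CD8 T cells at day 17. Klrg1 went from 84.4 to 129 CPM to 35.0 to 93.0 in WT, and from 96.1 to 105 to 71.0 to 139 in the Rnls mutant. Klre1 went from 145 to 202 CPM to 41.3 to 152 in WT, and from 116 to 173 to 118 to 178 in the Rnls mutant. The difference between days was called for neither. Klrc1 (-0.17, SE 0.11, adjusted p = 0.275) and Klrd1 (0.04, SE 0.11, 0.862) did not pass. Without the filter on low counts Klrc1 in CD8 T cells was called (-0.30, adjusted p = 0.0326). The 3 calls among 5 members tested stand against 21.4% of all 6379 genes.

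With total UMIs in place of TMM as the library size, the median of all genes between days moved by 0.12 on the log2 scale in CD8 T cells, and only Klrg1 in CD8 T cells passed (-0.45, adjusted p = 0.048). Under that scaling 1032 of the 1412 called genes were higher at day 17, against 678 of 1365 with TMM. Klre1 was also lost in DESeq2 (adjusted p = 0.0514), with a minimum of 20 cells (0.0787) and without any 1 of 10 grafts (Rnls mutant day 10 grafts 1 and 4 and day 17 grafts 1, 3 and 4, WT day 10 grafts 1 and 4 and day 17 grafts 2, 3 and 4), with an adjusted p of 0.0542 to 0.0851. Cluster 16, the CD8 T cell cluster with the highest Klrg1 (169 CPM) and Klre1 (267 CPM), moved with day: it made up 9.57% to 18.9% of the CD8 T cells of a graft at day 10 and 0% to 13.0% at day 17. The 8 NK markers summed to 3080 to 4641 CPM in CD8 T cells at day 10 and 821 to 3036 at day 17. The part of either in these differences was not tested.

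Of the members left out by the filter in CD8 T cells, Klra8 averaged 9.69 CPM at day 17 and 2.52 at day 10 (p = 0.0122, exact two-sided permutation test within genotypes, not adjusted over the 28 such tests), on 36 UMIs in all. The exact p between days was 0.0837 for Ncr1, 0.596 for Klrb1c and 0.663 for Klra7 in these cells. The macrophage and monocyte markers, 5 of 5 detected, summed to 88.1 to 218 CPM in CD8 T cells at day 10 and 175 to 933 at day 17. Klra8 was also found in macrophages, and the part of their RNA in this difference was not tested.

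**Figure D3:**
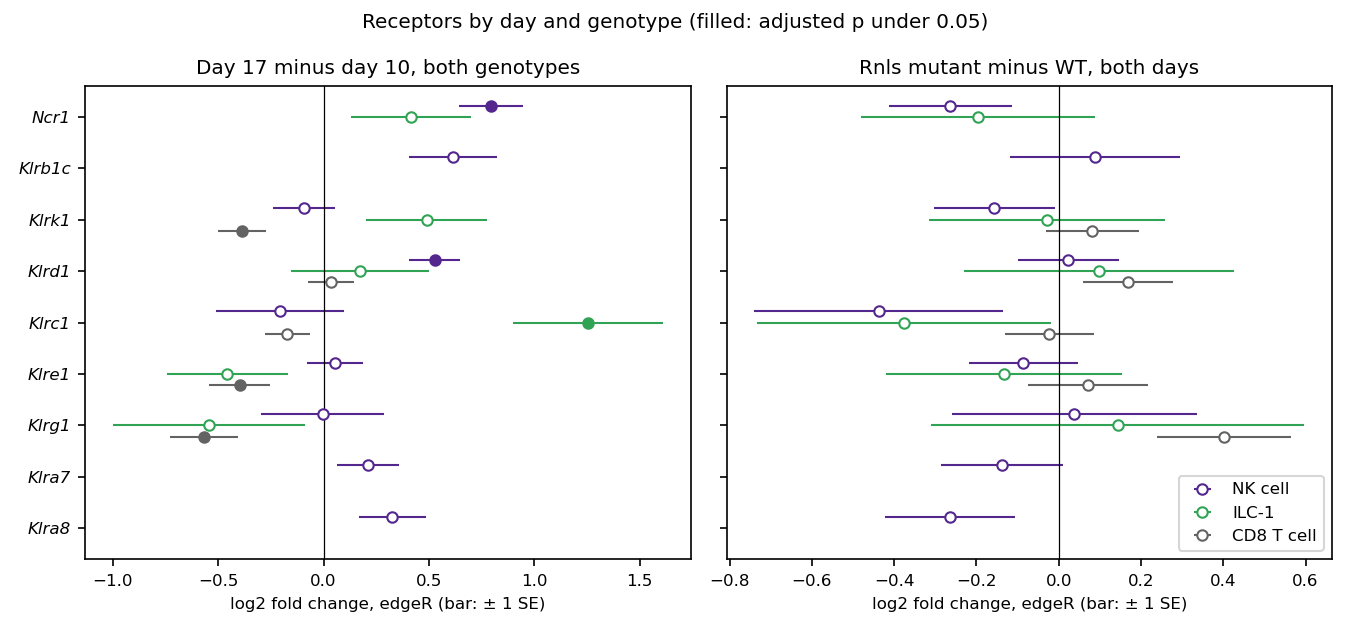
Log2 fold changes (points) with 1 SE (bars) of the members in NK cells, ILC-1 and CD8 T cells, for day 17 against day 10 over both genotypes and for Rnls mutant against WT over both days, with filled points at an adjusted p under 0.05 and no point where the filter on low counts left a gene out. Between days Ncr1 and Klrd1 in NK cells (0.79 and 0.53) and Klrc1 in ILC-1 (1.26) lie right of 0 and Klrk1, Klre1 and Klrg1 in CD8 T cells left of it, and no point is filled between genotypes.

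Between genotypes no member was called by edgeR in any of the 4 types, at either day, over both days or in the difference between days, in the fit without a hashtag block and with the filter on low counts. In Stem-Progenitor cells other settings did make calls, which are given with those cells. In NK cells 0 of 9 members were called by edgeR, and 0 reached an unadjusted p of 0.05, beside 0.0306% of all genes called at day 10, 0.184% at day 17, 0.0% over both days and 0.398% in the difference between days. Over both days 123 of the 3263 genes reached an unadjusted p of 0.05, and DESeq2 called 0 genes and 0 members. Ncr1 in NK cells averaged 341 ± 31.6 CPM in Rnls mutant and 381 ± 27.98 in WT grafts at day 10, and 581 ± 144 against 742 ± 264 at day 17 (n = 4 each), a log2 fold change of -0.26 over both days (SE 0.15, adjusted p = 1.00, edgeR). Klra8 gave the same value (-0.26, SE 0.16), and Klrc1 in NK cells gave -0.81 at day 17 (SE 0.50, adjusted p = 0.803), with 37.3, 48.1, 34.6 and 149 CPM in Rnls mutant and 167, 96.7, 107 and 14.5 in WT grafts. Leaving out 1 graft moved that Klrc1 value between -1.38 and -0.50.

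In ILC-1 edgeR called 0 of 6 members between genotypes, with 0 at an unadjusted p of 0.05 and 0 in DESeq2 (which called 1 gene at day 10 and 0 over both days), beside 0.0% of all genes called at day 10 (118 at an unadjusted p of 0.05), 0.0565% at day 17, 0.0% over both days (79) and 0.0565% in the difference between days. Klrc1 in ILC-1 was lower in both Rnls mutant grafts (107 and 40.9 CPM) than in both WT grafts (177 and 203) at day 10, with a log2 fold change of -1.08 (SE 0.57, adjusted p = 0.764, edgeR), and at day 17 the fold change was 0.33 (SE 0.44). The day 10 value was -2.21 without Rnls mutant day 10 graft 1, -0.61 without graft 3 and -0.17 with grafts of any cell number. The ILC1 markers ran the same way in these grafts, at 467 to 1370 CPM in Rnls mutant and 1676 to 2029 in WT, and their part was not tested. Without the filter on low counts Klra7 was called in ILC-1 at day 10 (adjusted p = 0.0305), on the UMIs of Rnls mutant day 10 graft 1 given above. With 2 grafts a side an exact permutation test of 1 gene at 1 day cannot give a p below 0.333.

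In CD8 T cells edgeR called 0 of 5 members between genotypes and DESeq2 0, with 0 members at an unadjusted p of 0.05 at day 10, 1 at day 17, 1 over both days and 2 in the difference between days, beside 0.314% of all genes called at day 10, 0.376% at day 17, 0.0% over both days (425 at an unadjusted p of 0.05, and 3 called by DESeq2) and 0.658% in the difference between days. Klrg1 in CD8 T cells came nearest. At day 17 it lay at 85.4, 139, 71.0 and 99.6 CPM in Rnls mutant and 52.7, 35.0, 93.0 and 69.9 in WT grafts, a log2 fold change of 0.85 (SE 0.29, unadjusted p = 0.00635, adjusted p = 0.321, edgeR). At day 10 it averaged 101 ± 3.73 and 103 ± 19.0 CPM. The difference between days was 0.90 (SE 0.33, adjusted p = 0.326), and that of Klre1 0.68 (SE 0.29, adjusted p = 0.410).

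The Stem-Progenitor label went against the markers. Of Kit, Cd34, Flt3 and Meis1, between 0 and 3 were detected in a group, at a summed level of at most 24.5 CPM, while 6 of 6 cycling markers summed to 4210 to 10304 CPM. The receptors were split unevenly over the 2 clusters of these cells. Cluster 24 (177 cells) held Ncr1 at 277 CPM with a UMI in 87.6% of cells, and cluster 11 (653 cells) at 6.58 CPM with a UMI in 2.30%. Klrb1c (41.7 against 0.429 CPM), Klra7 (344 against 0.286) and Klra8 (69.7 against 1.57) split in the same way, and Klrd1 (487 against 124), Klre1 (335 against 64.6), Klrg1 (377 against 55.1) and Klrk1 (289 against 138) were higher in cluster 24 with a level in both. Klrc1 was the exception, at 53.7 CPM in cluster 24 and 151 in cluster 11, where Cd8a stood at 71.2 CPM against 0 in cluster 24. The clusters were drawn on these genes among others, so this is a description.

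**Figure D4:**
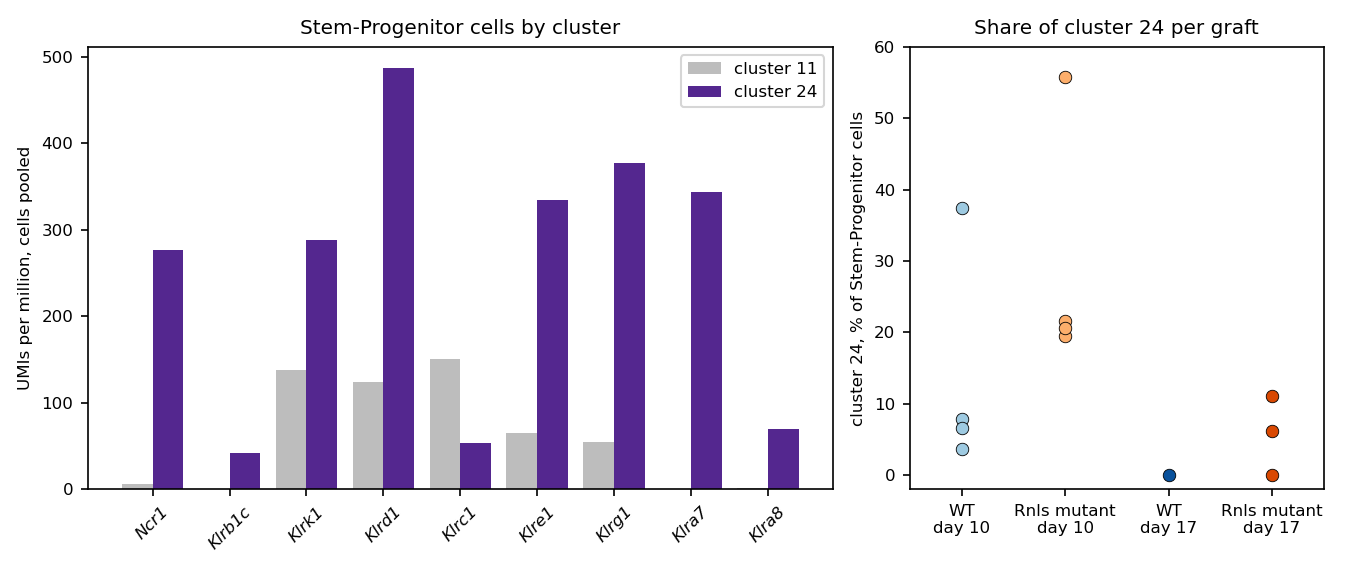
Left, levels of the 9 receptors in CPM in cells labelled Stem-Progenitor, pooled over grafts, in cluster 11 and cluster 24; right, the share of these cells that lay in cluster 24, in percent per graft with at least 10 cells. Ncr1 stands at 277 in cluster 24 and 6.58 in cluster 11, and the share runs from 3.67% to 37.4% in WT day 10 grafts and from 19.4% to 55.8% in Rnls mutant day 10 grafts.

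The mix of the 2 clusters differed between grafts. Cluster 24 made up 55.8%, 21.6%, 19.4% and 20.7% of these cells in Rnls mutant day 10 grafts and 37.4%, 7.89%, 3.67% and 6.59% in WT day 10 grafts, and at most 11.1% in the day 17 grafts with at least 10 cells. Ncr1 in Stem-Progenitor cells lay at 161, 49.1, 83.3 and 122 CPM in Rnls mutant and 138, 20.6, 8.16 and 36.3 in WT grafts at day 10. The log2 fold change was 1.09 (SE 0.54, adjusted p = 0.483, edgeR), that of Klrb1c 1.43 (SE 0.61, 0.386) and that of Klrg1 0.68 (SE 0.36, 0.503), and all 9 members had values above 0 with a median of 0.68, beside 0.02 for all genes. None of the 9 was called (1 at an unadjusted p of 0.05, 0 in DESeq2), beside 0.0548% of all 9132 genes. With the hashtag number as a block, Klrg1 (0.75, adjusted p = 0.0424) and Klra7 (0.82, adjusted p = 0.0369) were called higher in the Rnls mutant at day 10, among 156 genes. Without the filter on low counts 5 members were called there, Ncr1, Klrb1c, Klrg1, Klrd1 and Klra7, among 323 genes, and over both days Ncr1 and Klra7.

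The count also moved with 1 graft. Without WT day 10 graft 1, the WT graft with the most cluster 24 cells, 5 members (Ncr1, Klrb1c, Klrg1, Klre1 and Klrd1) were called higher in Stem-Progenitor cells of the Rnls mutant at day 10, with Ncr1 at 2.38 (adjusted p = 0.00543, edgeR), beside 216 genes called in all. The share of cluster 24 moved with these values, and its part was not tested over the whole type. Cluster 24 reached 10 cells in 3 Rnls mutant grafts at day 10, with Ncr1 at 267, 301 and 380 CPM, and in WT day 10 graft 1 alone, with 295, so the genotypes cannot be compared within it. In cluster 11 alone 0 of 6 members were called (1 at an unadjusted p of 0.05). At day 17, over both days and in the difference between days, 0 of 9 members were called in edgeR and in DESeq2, beside 0.0%, 0.011% and 0.0% of all genes (629 and 694 genes at an unadjusted p of 0.05 where 0 were called, and 2 and 6 called by DESeq2). WT day 17 was 1 graft of 12 cells there and is assumed to vary like the other groups. Between days Klrc1 in Stem-Progenitor cells rose by 0.97 (SE 0.22, adjusted p = 0.0103, edgeR), from 88.3 to 156 CPM at day 10 to 108 to 325 at day 17, the 1 call among 9 members beside 8.45% of all genes. Without the filter on low counts Ncr1, Klrg1 and Klra7 were called lower at day 17 as well, and in DESeq2 Klra7 (adjusted p = 0.0482). In cluster 11 alone the value was 0.71 (adjusted p = 0.0303), and with grafts of any cell number it was 0.68 (adjusted p = 0.0698). With total UMIs as the library size the median of all genes moved by 0.16, and 469 of 668 called genes were higher at day 17 against 317 of 772.

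Macrophages held Klra8, and Klrk1 at a lower level. They had 2684 Klra8 UMIs and 285 Klra7 UMIs in 7179 cells, a ratio of 9.42 where NK cells had 0.961 (2060 and 2143 UMIs), and 9 Klre1 UMIs where NK cells had 2090. Klra8 was seen in 6.76% of thinned macrophages (20.1% unthinned) and Klra9, which shares its end with Klra8, had 1870 UMIs. Clusters 2 (179 CPM) and 13 (141 CPM) held most of it. Per graft Klra8 in macrophages lay at 13.8, 68.7, 1.16 and 20.2 CPM in Rnls mutant day 10, at 50.2, 26.2, 74.0 and 33.1 in WT day 10, at 46.3, 84.8, 83.3 and 215 in Rnls mutant day 17 and at 175, 144, 63.2 and 64.8 in WT day 17. The days overlapped and the difference was not tested. Klrk1 in macrophages lay between 28.2 and 51.9 CPM in the 8 day 10 grafts and between 7.96 and 25.4 in the 8 day 17 grafts, with no overlap and no test.

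**Figure D5:**
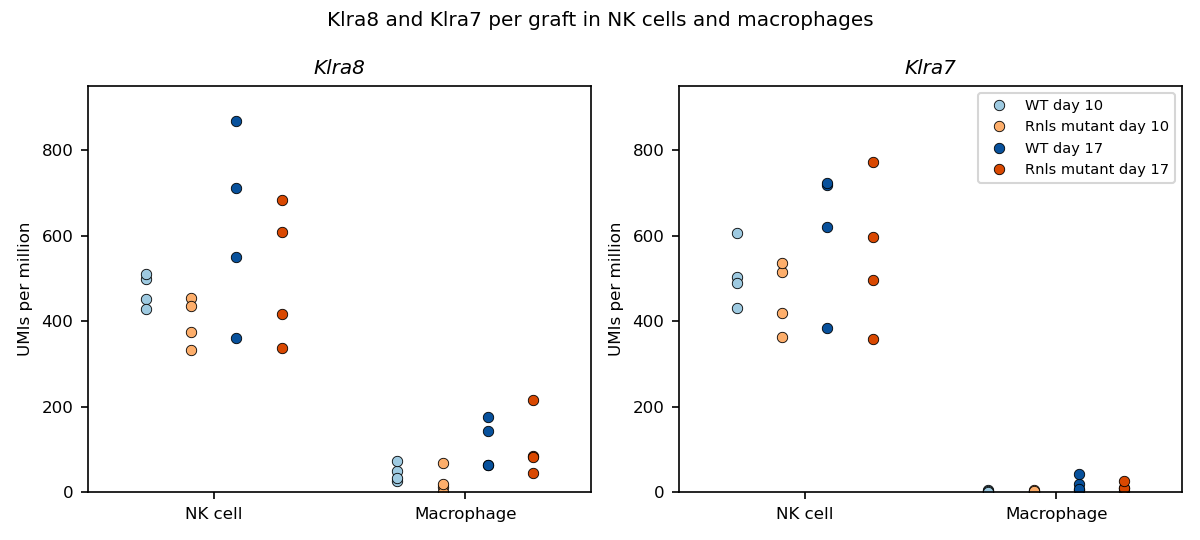
Klra8 and Klra7 in CPM per graft (points, coloured by genotype and day) in NK cells and macrophages, on 1 scale that starts at 0. Both genes lie between 333 and 867 in NK cells, and in macrophages Klra8 reaches 215 and Klra7 43.9.

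The other genes of the system were taken as 4 lists: 17 further Klr genes, 17 adaptors and signaling genes, 10 other NK receptors and 11 ligands in the table. Between days in NK cells, 4 of 12 tested adaptors and signaling genes rose and 0 fell, with Inpp5d (SHIP1, a phosphatase that dampens receptor signals) at 1.39 (SE 0.15, adjusted p = 6.76e-07), Cd247 at 0.74 (SE 0.14), Fcer1g at 0.55 (SE 0.11) and Zap70, a kinase of these receptors, at 0.66 (SE 0.20, adjusted p = 0.0291, edgeR). Their list had a median of 0.23, beside 0.02 over all genes. Fcer1g is also held by myeloid cells, whose markers in NK cells rose with day in the Rnls mutant, as given above. Their part in the Fcer1g value was not tested. Of 5 other NK receptors tested Cd244a rose (0.63), of 10 further Klr genes Klrb1a (0.50, adjusted p = 0.0483), and of 6 ligands 0, where 12.9% of all genes were called.

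In CD8 T cells Inpp5d (0.97), Zap70 (0.55) and Cd247 (0.38) rose as 3 of 13 adaptors, Cd7 (0.64) as 1 of 7 other receptors, and 0 of 3 further Klr genes and 0 of 8 ligands were called, where 21.4% of all genes were, so the share of adaptors is near that of all genes. In ILC-1 Tyrobp, the adaptor DAP12, fell (-1.71, SE 0.39, adjusted p = 0.0135) as the 1 call among 7 adaptors, and 0 of 6 further Klr genes, 0 of 2 other receptors and 0 of 6 ligands were called, where 15.5% of all genes were. In Stem-Progenitor cells 3 of 8 ligands rose, Raet1e by 1.17 (adjusted p = 0.00443, edgeR) first among them, then H2-T23 (0.79) and Clec2i. Klrc2, the near copy of Klrc1, rose by 1.05 as 1 of 12 further Klr genes, and 1 of 10 other receptors rose, Cd226 (0.97), while 1 of 16 adaptors rose (Lck) and 2 fell (Fcer1g and Tyrobp), where 8.45% of all genes were called. Klrb1a in NK cells and Clec2i, Lck and Tyrobp in Stem-Progenitor cells lie beyond the 5 of smallest p and are named after their values were seen.

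Between genotypes the list genes called were Fcer1g and Tyrobp in CD8 T cells, adaptors that myeloid cells also hold. Of 13 adaptors and signaling genes tested there, 1 was called at day 10, 1 at day 17 and 2 in the difference between days. Of all 6379 genes, 0.314%, 0.376% and 0.658% were called in these comparisons. Fcer1g was lower in the Rnls mutant at day 10 (-1.08, SE 0.21, adjusted p = 0.00729) and Tyrobp higher at day 17 (1.69, SE 0.36, adjusted p = 0.0231, edgeR), with differences between days of 1.97 and 2.48. The 5 macrophage and monocyte markers in CD8 T cells ran the same way, at 88.1 to 103 CPM in Rnls mutant against 168 to 218 in WT grafts at day 10, and 691 to 933 against 175 to 403 at day 17. Their part in the 2 adaptors was not tested.

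Transcripts of ligands were found in the same immune cells, and beta cells were not in the sort. Raet1e averaged 271 CPM in CD8 T cells, 237 in CD4 T cells, 218 in NK cells and 205 in ILC-1 against 13.7 in macrophages, and H60b 153, 118, 120 and 124 against 10.1. H2-T23 lay between 98.3 CPM in granulocytes and 290 in macrophages. Cdh1, a KLRG1 ligand, was at most 8.47 CPM in any type.

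Across the 10 cell types with a level, the genes whose pattern was most like each member were found by Pearson correlation of log2(CPM + 1) among 10414 genes, as a description over types that share libraries. Nearest to Ncr1 were Adamts14 (r = 0.980), Klrb1c (0.980) and Klrb1a (0.972), and nearest to Klrb1c were Adamts14, Spry2 and Rab27b. Klrc1 was nearest to Klrc2 (r = 0.987), Bicdl1 and Gm29243, Klra7 to Sema6a (0.973), Klra4 and Tmsb15a, and Klra8 to Klra10 (0.933), Klra9 and Plscr4, where the Klra and Klrc genes can share reads. Klre1 was nearest to Samd3 (0.979), Chsy1 and Klrc3, Klrd1 to Dapk2 (0.969), Pawr and Serpinb6b, Klrg1 to Gzmb (0.984), which encodes granzyme B, Muc20 and Yaf2, and Klrk1 to Pogk (0.985), Zfp398 and Snhg8.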

How the data were processed

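The authors deposited UMI counts per gene and cell (10x Genomics 3′ kit v3.1, read with Cell Ranger against mm10 per the labels) and a cluster, cell type and hashtag for each cell; counting settings, hashtag assignment and cell filters are not given in the sources used here, and the separate hashtag libraries were not analysed here. Members and gene lists were chosen with earlier results of these data known. UMIs were summed per graft and cell type and tested with edgeR 4.0.16 (TMM, filterByExpr, glmQLFit, glmQLFTest) in R 4.3.3, with 4 groups in 1 fit and Benjamini-Hochberg adjustment over all genes tested at 0.05. Members that filterByExpr left out were tested by exact permutation of CPM over grafts (numpy 2.4.6). The edgeR fit was tested on simulated counts, for the difference between genotypes over both days. Named genes were the 9 members, at most 5 called list genes per comparison, the 3 genes nearest each member among genes at 10 CPM or more in a type (pseudocount 1), and ligands. Alternatives were DESeq2 1.42.0, total UMIs as library size, no filter, a minimum of 1 or 20 cells, the hashtag as a block, the 6% of cells with the highest Scrublet scores left out (scanpy 1.11.5; Scrublet itself called 1 cell, so its call was void), each graft left out, and clusters 11 or 24 alone, which was added after seeing the data. Doublets stayed in otherwise. Positions came from GENCODE M21.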

Additional observations from a re-analysis of the deposited data

Results flagged for a closer look

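In groups of 4 grafts, 1 graft was checked for lying far from the other 3 by Dixon's test, in 74 groups of members and cell types; chance flags about 5% of such groups, and 7 were flagged. Ncr1 in NK cells of WT day 17 graft 3 was 349 CPM, with the nearest of the others at 839. Klrc1 in NK cells of Rnls mutant day 17 graft 4 was 149 CPM (nearest 48.1), and Klrk1 in CD8 T cells of Rnls mutant day 10 graft 4 was 689 CPM (nearest 606). In Stem-Progenitor cells, WT day 10 graft 1 stood out for Klre1 (217 CPM, nearest 85.1), Klrg1 (217, nearest 78.6) and Klra7 (146, nearest 32.7), and Rnls mutant day 10 graft 1 for Klra7 (280, nearest 59.96). These were the grafts with the largest share of cluster 24 cells in their groups, 37.4% and 55.8%.

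In CD8 T cells the genotype difference changed between days for 2 adaptors, by the test of the difference itself in edgeR: the log2 fold change of Rnls mutant against WT was larger at day 17 than at day 10 by 1.97 for Fcer1g (adjusted p = 0.0102) and by 2.48 for Tyrobp (adjusted p = 0.000943). The summed macrophage and monocyte markers in the same cells moved in the same order, and their part was not tested.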

How the results depend on the processing

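Of the counts of called members, 374 stayed within 1.5 times the reported count under the alternatives and 19 did not. A count of 0 that stayed 0 is among the 374, and only the counts between days had reported calls to lose. The split therefore does not measure how stable the calls were. Without a filter on low counts the count was 1 in NK cells between days (2 as reported), 1 in ILC-1 between genotypes at day 10 (0), 5 in CD8 T cells between days (3), and in Stem-Progenitor cells 5 between genotypes at day 10 (0), 2 over both days (0) and 4 between days (1). DESeq2 gave 0 in ILC-1 between days (1) and 2 in Stem-Progenitor cells between days (1). Grafts of any cell number gave 3 and 0 for the same 2 counts, total UMIs as library size gave 1 in CD8 T cells between days, and cluster 11 alone gave 2 in Stem-Progenitor cells between days. Leaving out 1 graft gave 2 to 3 members in NK cells between days, 0 to 1 in ILC-1 between days, 2 to 3 in CD8 T cells between days, and 0 to 5 in Stem-Progenitor cells between genotypes at day 10. The causes were not tested. Klrd1 in CD8 T cells between days turned from 0.04 to -0.090 without a filter and ran from -0.083 to 0.093 as grafts were left out, Klrg1 in CD8 T cells between genotypes at day 10 ran from -0.136 to 0.069 (0.069 without WT day 10 graft 1), and Klrg1 in Stem-Progenitor cells turned to -0.23 in cluster 24 alone, where WT was 1 graft that is assumed to vary like the Rnls mutant grafts.

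Grafts with the same hashtag number did not deviate together throughout (correlations of -0.0552 to 0.166 in NK cells, -0.0041 to 0.287 in CD8 T cells, 0.00299 to 0.347 in Stem-Progenitor cells, and 0.175 and -0.0826 in ILC-1), and the sources used here do not say which hashtags shared a host, so grafts were not fitted as pairs in the report; this does not show that they were unpaired. With the replicate block, 2 members were called in Stem-Progenitor cells between genotypes at day 10, Klrg1 (0.75, adjusted p = 0.0424) and Klra7 (0.82, adjusted p = 0.0369, edgeR), where the whole table had 156 calls against 5, and no count of members in NK or CD8 T cells moved. The block could not be fitted between days or in ILC-1. Counts over all genes moved most in Stem-Progenitor cells at day 10, from 5 to 49 in DESeq2 and 323 without a filter, and in CD8 T cells between genotypes at day 10 from 20 up to 79. With total UMIs as library size the calls between days split 305 higher and 151 lower in NK cells against 207 and 214, and 227 and 103 in ILC-1 against 129 and 146, where the median of all genes moved by 0.24. Members with few UMIs, such as the Ly49 genes in ILC-1, limit what could be seen there.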
